A study of Mus musculus with 2 samples.

Results

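The dystrophin-glycoprotein complex genes are 8 genes chosen by name: Dmd, Utrn, Dag1, Sgca, Sgcb, Sgcd, Sspn and Dtna. They are 8 of the 21938 protein-coding genes of the annotation, and they carry 55 of its 93459 annotated transcription starts. Their chromatin was described from DNase-seq, which finds accessible DNA by sequencing the ends of fragments that the enzyme DNase I releases from nuclei. The samples were gastrocnemius, a calf muscle, from male mice of strain B6CASTF1/J, the offspring of a C57BL/6 by CAST cross, aged 25 days. There was 1 group with 2 libraries, biological replicates 1 and 2 per the labels, and no treatment, genotype or time was compared. The labels describe the biosamples as males of different number but give both the same donor identifier; that these were separate animals is taken from the former. No test between conditions was possible, and values are given for each library, with the mean and the SD over both where they are summarised.

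Dystrophin links the actin cytoskeleton of the muscle fibre, across the sarcolemma, to the extracellular matrix. The link passes through dystroglycan, which binds laminin outside the cell, and is held in place by the sarcoglycans and sarcospan in the membrane, while dystrobrevin and the syntrophins bind to dystrophin inside. Loss of dystrophin causes Duchenne muscular dystrophy, loss of a sarcoglycan causes a limb-girdle dystrophy, and utrophin is a close relative of dystrophin that is concentrated at the neuromuscular junction of mature fibres. Dmd and Utrn both have several promoters, which give full-length and shorter proteins in different cell types, so each start was read singly.

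A peak is a stretch the authors called as accessible in 1 library, and its signal is their deposited value. Signals were whole multiples of a fixed step in each library, which reads as tags scaled to the library size. On that reading, which comes from the values, the libraries held 169 M tags in replicate 1 and 117 M tags in replicate 2, and the median peak of either rested on 114 tags. The lists held 97499 and 61664 peaks and 243784 and 171389 footprints, a footprint being a short protected stretch inside accessible DNA. Marker genes fitted the tissue label in part: 12 of 15 skeletal muscle markers had a promoter peak in both libraries, Myh4 had one in replicate 1 only, and the fast myosin genes Myh1 and Myh2 had none. Promoter peaks of both libraries also lay at 5 of 5 endothelial, 3 of 4 fibro-adipogenic, 3 of 6 smooth muscle and pericyte, 3 of 6 Schwann cell, 2 of 4 satellite cell and 4 of 4 neuronal markers, and at 0 of 4 leukocyte markers. As the neuronal markers all had such peaks too, these counts do not single out muscle or tell which cell types were present. Because the tissue is a mixture, a signal from few cells and a weak signal from many cells cannot be told apart.

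The sequences below are those the results turn on. They are both Dmd promoters with a peak in either library, the Dag1 promoter, the strongest regions upstream of Dag1, Sgca and Utrn, and a short protected stretch in Sgcb. They are the RefSeq reference of build mm10 and not reads of the hybrid mice, and each is printed 5′ to 3′ on the strand of its gene. Capitals mark bases inside footprints that overlap between the libraries; for the Dmd long-form promoter they mark the only footprint there, of replicate 1. The positions are chrX:82948694-82948869 (+), chrX:85048201-85048294 (+), chr9:108263959-108264120 (-), chr9:108280161-108280380 (-), chr11:94979021-94979220 (-), chr10:12878681-12878920 (-) and chr5:73633324-73633353 (-), in the order printed.
Dmd long-form promoter: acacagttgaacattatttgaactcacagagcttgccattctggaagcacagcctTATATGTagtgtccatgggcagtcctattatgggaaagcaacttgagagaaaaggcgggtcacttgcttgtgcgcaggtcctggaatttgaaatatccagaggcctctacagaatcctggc
Dmd intron 62 promoter: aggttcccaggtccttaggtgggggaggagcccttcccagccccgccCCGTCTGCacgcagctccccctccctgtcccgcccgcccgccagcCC
Dag1 promoter: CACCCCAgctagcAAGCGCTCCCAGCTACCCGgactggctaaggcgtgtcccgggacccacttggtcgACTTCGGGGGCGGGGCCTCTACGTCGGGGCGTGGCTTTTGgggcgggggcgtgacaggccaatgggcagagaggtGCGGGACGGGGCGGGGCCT
Dag1 upstream region: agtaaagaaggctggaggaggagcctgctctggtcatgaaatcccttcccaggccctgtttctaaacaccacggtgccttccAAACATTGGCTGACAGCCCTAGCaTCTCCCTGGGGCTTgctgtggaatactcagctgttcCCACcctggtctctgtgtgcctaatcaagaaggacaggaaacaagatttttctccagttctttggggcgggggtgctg
Sgca upstream region: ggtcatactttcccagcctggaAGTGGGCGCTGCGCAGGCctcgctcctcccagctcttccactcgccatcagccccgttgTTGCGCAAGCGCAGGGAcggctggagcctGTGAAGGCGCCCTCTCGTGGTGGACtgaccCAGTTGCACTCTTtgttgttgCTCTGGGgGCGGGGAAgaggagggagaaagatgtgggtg
Utrn upstream region: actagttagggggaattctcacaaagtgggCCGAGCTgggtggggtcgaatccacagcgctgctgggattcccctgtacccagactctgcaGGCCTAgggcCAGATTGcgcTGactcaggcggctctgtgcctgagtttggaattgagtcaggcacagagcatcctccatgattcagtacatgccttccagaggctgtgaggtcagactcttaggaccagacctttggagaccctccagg
Sgcb exon 6: taaaTCTGGCCACCAGGGGGCGTATGCCtt

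All 8 genes had a peak of both libraries within 1 kb of at least 1 of their annotated starts, beside 63.0% of all protein-coding genes (66.5% in replicate 1 and 64.2% in replicate 2 taken alone). Any start counts here, so a gene with more starts has more places for such a peak. The number of starts was not matched, here or for the companion genes below. Single starts divided: 27 of the 55 (49.1%) lay within 1 kb of a peak of both libraries, beside 51.7% of all protein-coding starts. With starts up to 1 kb apart joined into start windows, 12 of 36 windows (33.3%) had a peak of both libraries, beside 33.5% of all windows. Positions with a q-value below 0.05 in both libraries lay at 13 of the 36, beside 34.7%. These shares of starts and windows lay at the background. Of the other windows, 3 had a peak in replicate 1 only, 2 in replicate 2 only and 19 in neither library.

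Levels at the strongest promoter of each gene spanned about an order of magnitude, and Dag1 stood at the top in both libraries. Dag1, which encodes both dystroglycan subunits, had a signal of 12.2 in replicate 1 and 7.77 in replicate 2 (9.98 ± 3.14, SD, n = 2). Utrn followed with 4.18 and 4.15 (4.16 ± 0.0164, SD, n = 2). Sgcb, the gene of β-sarcoglycan, had 3.77 and 3.48 (3.63 ± 0.209, SD, n = 2). These 3 were the members above the median of all promoters with a peak, 3.57 in replicate 1 and 3.44 in replicate 2, and Sgcb lay close to it.

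The other 5 genes lay below that median in both libraries. Sspn, the gene of the membrane protein sarcospan, had 2.55 and 2.92 (2.74 ± 0.264, SD, n = 2). Sgca, the gene of α-sarcoglycan, had 2.12 and 1.80 (1.96 ± 0.222, SD, n = 2), and Sgcd, the gene of δ-sarcoglycan, had 2.02 and 1.67 (1.85 ± 0.242, SD, n = 2). The 2 libraries' values of Sgca and Sgcd interleaved, so their order was within the spread. Dmd had 1.05 and 0.966 (1.01 ± 0.0617, SD, n = 2) and Dtna, the gene of α-dystrobrevin, 1.14 and 0.752 (0.947 ± 0.276, SD, n = 2), and these lowest levels interleaved as well. For all other neighbours in the order the values of the libraries did not overlap. Replicate 1 was the higher library at 7 of the 8 genes, with Sspn the exception. Of these 7, only Dag1 and Dtna had 95% Poisson intervals of the tag counts that did not overlap between the libraries. The median of all promoters with a peak, given above, was also the higher in replicate 1. The share of all promoters that were higher in replicate 1 was not counted, nor the share whose intervals did not overlap. Neither this lean nor the lack of overlap is therefore read as particular to these genes. The median over the 8 genes was 2.33 in replicate 1 and 2.36 in replicate 2.

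**Figure D1:**
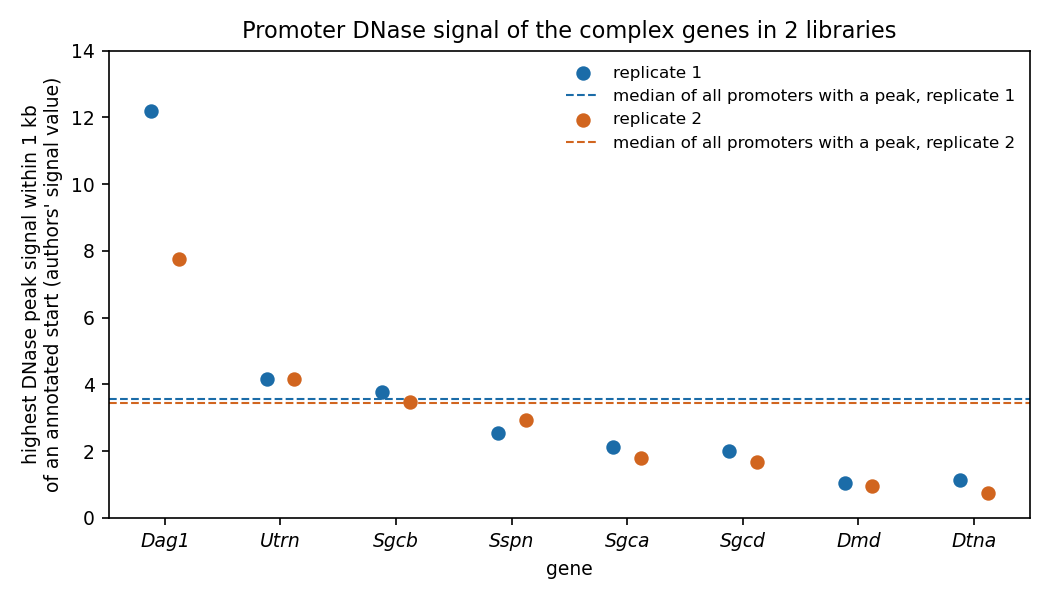
Highest DNase peak signal within 1 kb of an annotated start (vertical axis, the authors' signal value) for each of the 8 genes (horizontal axis, ordered by the mean), with 1 point per library and dashed lines at the median of all protein-coding promoters with a peak in that library. Dag1 stands apart at 12.2 and 7.77, Utrn and Sgcb lie at or above the medians, and the other 5 genes lie below them.

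Dmd is X-linked and was ranked among X-linked promoters as well. Among all promoters with a peak, Dmd stood at percentile 18.4 in replicate 1 and 12.2 in replicate 2. Among X-linked promoters it stood at percentile 38.1 and 32.7, where the median signals were 1.64 and 1.50. Of X-linked protein-coding genes, 46.1% had a promoter peak of both libraries.

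Dmd (chrX:82948870-85206141, + strand, 2257 kb) has 9 annotated start windows, and only the one in intron 62 had a peak of both libraries. That window (85048295 to 85048413, 2099 kb from the 5′ end) lies in the intron from which Dp71 begins, the short dystrophin made in most tissues other than the muscle fibre. Short forms of dystrophin and the forms of utrophin are matched here to starts by position in the gene alone. Its peak had a signal of 1.05 in replicate 1 (178 tags, 95% Poisson interval 0.904 to 1.22) and 0.966 in replicate 2 (113 tags, 0.796 to 1.16), and these intervals overlap. They cover counting error only. The peak was in the stricter list of both libraries as well, and its lowest q-value was 7.35e-25 in replicate 1 and 1.35e-13 in replicate 2. The region held 4 footprints shared by the libraries. In the 94 bases printed above it was 75.5% G or C and held 3 matches of GGGCGG, a letter pattern of SP and KLF factors. These lay 52, 18 and 14 bases before the start, and the last 2 overlap. Shared footprints covered 1, 0 and 0 of their 6 bases, in that order.

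The promoter of Dp427m, the full-length muscle dystrophin, was barely accessible by this measure. Its window (82948870 to 82948903) had a peak in replicate 1 with a signal of 0.302 (51 tags, 0.225 to 0.397) and none in replicate 2. The replicate 1 peak was missing from the stricter list, its lowest q-value was 1.54e-03, and 201 positions near the start lay below a q-value of 0.05 in replicate 1 and 0 in replicate 2. In replicate 1 its interval lay below that of the intron 62 window, so within this library the internal promoter had the higher signal. The weakest peak listed in and around Dmd had 0.112 in replicate 1 and 0.162 in replicate 2, so the lists of both libraries reached below the level of this start. The printed sequence of this promoter held a match of the CArG box, the site pattern of serum response factor, 98 bases before the start, and CANNTG matches, the E-box pattern, at 173 and 61 bases before it. The only footprint, the 7 bases in capitals, covered none of these matches.

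The remaining 7 Dmd windows had no peak in either library and no position below a q-value of 0.05. They include the annotated starts in intron 29, intron 44 and intron 55, the introns from which the retinal form Dp260, the brain and kidney form Dp140 and the Schwann cell form Dp116 begin. Starts that RefSeq adds 134.2 kb and 2.41 kb upstream of the muscle start had none either. The other starts without a peak lay in intron 1 and in exons 40, 54 and 75, and in this annotation all 7 windows carry noncoding transcripts only. Of the Schwann cell markers, Sox10 was without a promoter peak in either library. Whether endothelial, fibro-adipogenic or other nonmuscle cells, whose markers had promoter peaks, carried the intron 62 peak was not tested.

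Away from its starts Dmd held little that repeated. Replicate 1 had 20 regions in and around the gene and replicate 2 had 7, a region being a peak or a run of overlapping peaks of the 2 libraries, and 3 regions held peaks of both. Besides the intron 62 promoter these were a region in intron 63, 36.0 kb beyond that start, with 0.420 and 0.487, and one in intron 43 with 0.154 and 0.282. The regions seen in replicate 1 alone numbered 17 and reached 0.396 at most, and those in replicate 2 alone numbered 4 and reached 0.282. Per length, Dmd held 0.131 shared regions per 100 kb of gene and flanks. The 59 protein-coding genes longer than 1 Mb had a median of 0.425, and 10 of them had fewer than Dmd. The other 3 X-linked genes among them had 0.141 to 0.175.

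Utrn (chr10:12382188-12869365, - strand, 487.2 kb) differed from Dmd in that its 5′ promoter was the strongest of its 9 start windows. The 5′ window (12869365), where utrophin-A begins, had 4.18 (706 tags, 3.87 to 4.50) and 4.15 (486 tags, 3.79 to 4.54), equal within counting error, with 7 shared footprints. Its GC content of 74.7% and an observed over expected CpG ratio of 0.990 resemble those of CpG islands. A second window in intron 1, at 12868171 to 12868281, had peaks of its own with 1.83 and 1.91.

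The window in intron 2 at 12813549 to 12813615, 55.8 kb from the 5′ end, is 1 of 2 start windows in the intron from which utrophin-B begins, the form known from vascular endothelium, and position alone does not tell which of them is its start. It had a peak in replicate 2 only, with a signal of 1.17 (137 tags, 0.983 to 1.38) and a lowest q-value of 1.41e-07, and this peak was in the stricter list. Replicate 1, the library with more tags, had 6 positions with q-values no lower than 0.0490 and no peak there. The other start in intron 2, at 12826938, likewise had a peak in replicate 2 only, with 0.504 (59 tags, 0.384 to 0.650).

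Further in, the Utrn starts in intron 51 were weak in both libraries. The start at 12614831 had 0.319 and 0.632, and the start at 12548879 had 0.308 and 0.641, so replicate 2 was the higher at both. For each of these pairs the Poisson intervals (0.240 to 0.417 against 0.496 to 0.794, and 0.230 to 0.403 against 0.504 to 0.803) did not overlap. The remaining 3 windows, at 12861735, 12688862 and 12403075, had no peak and no position below a q-value of 0.05.

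Utrn held the most shared regions of the 8 genes. It had 31 regions in replicate 1, 22 in replicate 2 and 19 shared, or 3.60 per 100 kb, and 95.9% of the 390 genes of like length, within a factor of 1.5, had fewer shared regions, their median being 5. Of these 19 regions, 12 lay in introns or exons away from a start, and 8 of the 12 were higher in replicate 1 and 4 in replicate 2. The strongest lay in intron 3 (12758321 to 12758500) with 2.07 and 1.18, and in exon 27 (12690721 to 12690900) with 1.72 and 1.20. Both of these internal regions were higher in replicate 1. The region 9.45 kb upstream, printed above, had 1.51 and 1.15, with 4 shared footprints and 3 matches of TGANTCA, the AP-1 pattern. The footprints lay mostly outside these matches, covering 0, 0 and 2 of their 7 bases.

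**Figure D2:**
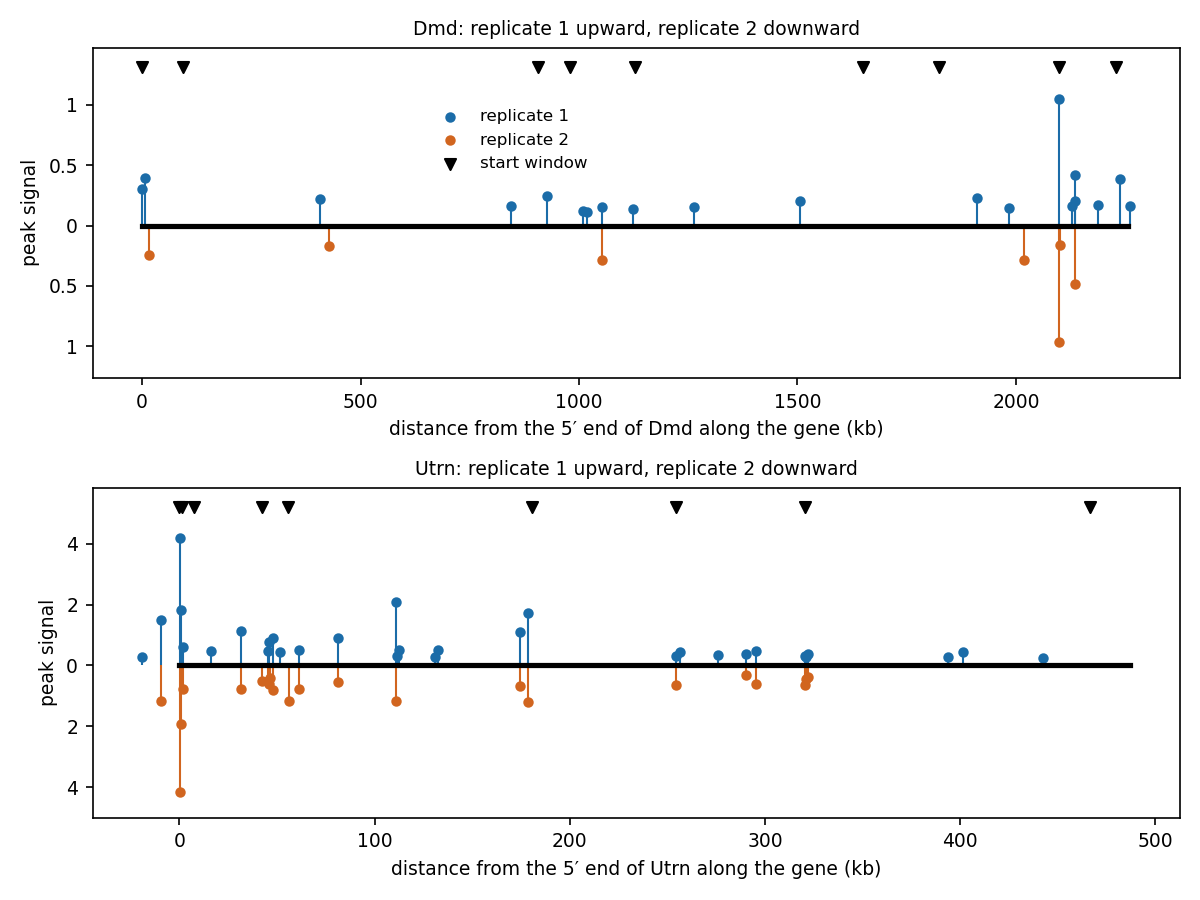
Peak signal of regions (vertical axis, the authors' signal value; replicate 1 upward, replicate 2 downward) against distance from the 5′ end along Dmd and Utrn (horizontal axis, kb), with triangles at the start windows. Dmd has 1 tall line in each library, at 2099 kb, and a short line of 0.302 in replicate 1 alone at its 5′ end, while Utrn is tallest at its 5′ end with 4.18 and 4.15.

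Dag1 (chr9:108204634-108263958, - strand) has 1 start window, which all 6 of its starts share. Its peak region (108263781 to 108264120) held 8 shared footprints and was the strongest of all 52 shared regions of the 8 genes. Its signals of 12.2 and 7.77 stood at percentile 98.5 and 93.5 among all promoters with a peak. The printed stretch upstream of the start holds 3 matches of GGGCGG, and 2 of them lie wholly in shared footprints. Around the gene lay a region 16.3 kb upstream with 4.73 and 2.95, in which 1 CAGCTG lay outside the footprints, and a region downstream of the gene end (108201161 to 108201500) with 4.51 and 2.55. Replicate 1 was the higher at each of these 3 strongest Dag1 regions. Dag1 had 18 regions in replicate 1 and 6 in replicate 2, and all of the latter were shared. The weakest peak listed there had 0.396 in replicate 1 and 1.13 in replicate 2, so the lists reached down to different levels at this locus.

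Among the sarcoglycan genes, Sgca (chr11:94962791-94976327, - strand) had its strongest accessible region at no annotated start. That region (94979021 to 94979220) lay 2.79 kb upstream of the 5′ start, and no annotated start of any gene lay within 1 kb of it. It had 8.34 in replicate 1 and 6.32 in replicate 2 (7.33 ± 1.43, SD, n = 2), second to the Dag1 promoter among the shared regions of the 8 genes, and held 6 shared footprints. The footprints covered 88 of its 200 bases, printed in capitals above. The window of the 5′ start (94976327) had a peak of 0.852 in replicate 1 only, whose midpoint lay 914 bases inside the gene and close to a start that RefSeq places at 94975307. The start in exon 2 had a peak of 1.11 in replicate 1 only. The start that carried peaks of both libraries, at 94970676 in exon 7, had 2.12 and 1.80. The weakest peak listed in and around Sgca had 0.426 in replicate 1 and 0.923 in replicate 2, so a peak like that in the 5′ window would have been below any listed there in replicate 2.

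Sgca had 9 shared regions, or 16.8 per 100 kb with the flanks counted, and 96.0% of the 4664 genes of like length had fewer. These are neighbours' as well as its own: 5 of the 9 lay at starts of other genes or inside Col1a1, the gene of a collagen chain. At the Ppp1r9b start (94990781 to 94991060) the signals were 5.01 and 4.66, and at the Gm24877 start (94958081 to 94958500) they were 4.22 and 3.22. Both were above the signals at the annotated starts of Sgca.

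Sgcb (chr5:73632749-73647790, - strand) had a peak at its 5′ start, with 4 shared footprints, and none at a noncoding start in exon 2. In exon 6 a region (73633241 to 73633440) within 1 kb of a start of Lrrc66 had 0.911 and 1.71, the higher in replicate 2. The 30 bases printed above come from it and hold a match of the core pattern of the insulator protein CTCF, of which all 12 bases lie in a footprint of both libraries.

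Sgcd (chr11:46896253-47988969, - strand, 1093 kb) had its main peak at an internal coding start in intron 1 (47379522), with 2.02 and 1.67. The 5′ start (47988969), which is rich in CpG (ratio 0.803) and carries a noncoding transcript, had 0.432 and 0.624. The 5′ start was thus the weaker in both libraries, and the coding start at 47578965 had no peak in either. Sgcd had 14 regions in replicate 1, 10 in replicate 2 and 6 shared, or 0.530 per 100 kb, and 39 of the 59 genes longer than 1 Mb had fewer per length.

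Sspn (chr6:145931641-145965223, + strand) had no peak at its 5′ start and a peak of both libraries at a coding start in intron 2 (145934122). Its other shared region, downstream of the gene (145968321 to 145968540), had 1.86 and 1.12. Dtna (chr18:23415135-23659715, + strand) had peaks of both libraries at its 5′ window, and none at its other 4 windows. Its strongest shared region lay in intron 20 (23654401 to 23654640) with 1.32 and 1.11. A start that RefSeq adds 105.1 kb upstream had 0.290 and 0.479.

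In 3 of the 7 members with more than 1 start window, Dmd, Sgca and Sspn, the 5′ window lacked a peak of both libraries and an internal window had one. This count was made after the values had been seen. The same held for 7.51% of the 12355 protein-coding genes with more than 1 window. These sets are unlike: the 12355 include genes without a peak of both libraries at any window, whereas all 7 members had one. The number of windows per gene was not matched either, so no excess is read from these shares.

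Base composition went with accessibility of the starts. The 12 windows with a peak of both libraries had a median GC content of 58.5% and a median CpG ratio of 0.462, and the 19 windows with none had 44.7% and 0.210, beside 50.7% and 0.302 over all protein-coding start windows. The Dmd muscle start, which had a peak in replicate 1 only and so enters neither group, had 45.7% and 0.129. The Dmd intron 62 start, with a peak of both libraries, had 62.7% and 0.486. The Dtna 5′ window had a peak of both libraries at the same GC content as the Dmd muscle start, 45.7%, with a higher CpG ratio of 0.260.

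**Figure D3:**
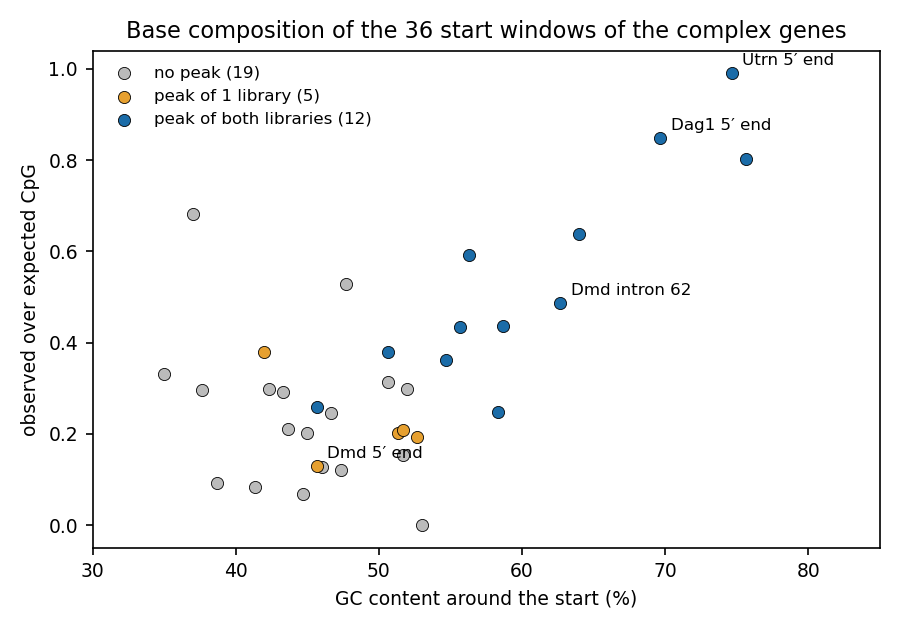
Observed over expected CpG (vertical axis) against GC content (horizontal axis, %) from 250 bases before to 50 bases after each of the 36 start windows, coloured by how many libraries had a peak within 1 kb. The windows with a peak of both libraries lie mostly to the upper right, with Utrn at 74.7% and 0.990, and the Dmd 5′ end lies at 45.7% and 0.129. The Dmd start in exon 40, without a peak and at 28.3%, lies left of the axis range and is not drawn.

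Over the 8 genes with 20 kb on either side there were 147 regions: 52 shared, 76 in replicate 1 only and 19 in replicate 2 only. Of the replicate 1 regions 40.6% were shared, beside 49.6% over the genome, and of the replicate 2 regions 73.2%, beside 79.4%. Regions of a single library were weak, with medians of 0.441 in replicate 1 and 0.402 in replicate 2, against 0.982 and 0.957 for the shared regions. Of the shared regions 14 lay at starts of the members, 7 at starts of other genes, 17 in introns, 1 in an exon, 8 upstream, 3 downstream and 2 inside another gene. Upstream is meant here from the coding transcript used to place regions, and the 2 such regions of Sgcd lie inside its annotated gene span.

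Shared regions had mostly like signals in the libraries. The log2 ratio of replicate 1 to replicate 2, centred on the median of all 46745 shared regions, ran from -1.20 to 1.06 with a median of 0.14, and 4 of the 52 (7.69%) were beyond 2-fold, beside 4.41% of all shared regions. Replicate 1 was the higher at 1, beside 2.25% of all, a region 67.9 kb upstream of the nearest Sgcd start with 1.27 and 0.607. Replicate 2 was the higher at 3, beside 2.16%, the Utrn start at 12548879 and a pair of regions at starts of Spata18, the neighbour of Sgcb, with 0.313 and 0.718 and with 0.373 and 0.769.

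**Figure D4:**
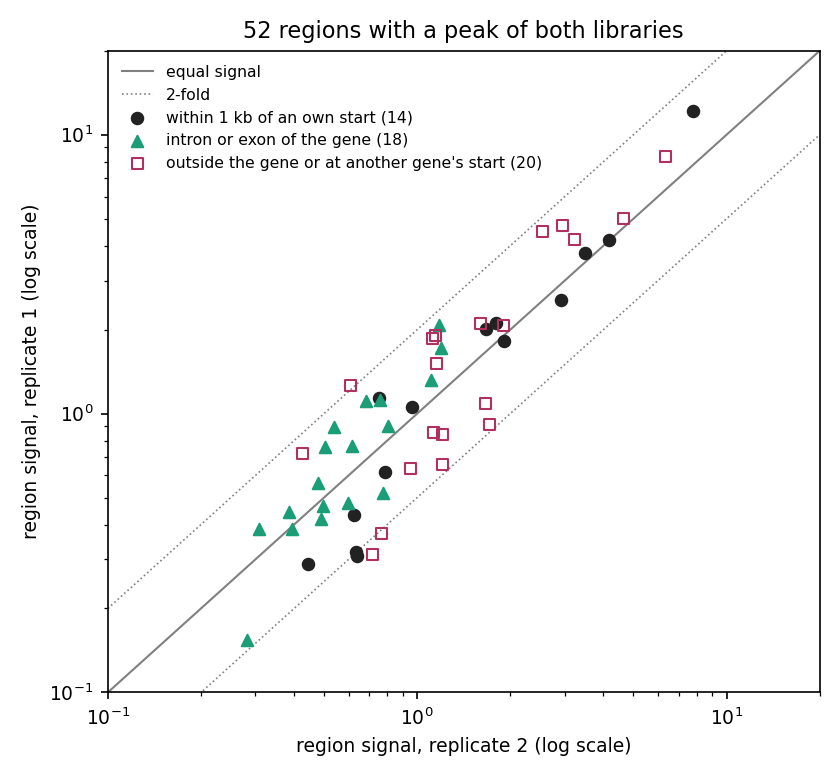
Signal in replicate 1 (vertical axis, log scale) against signal in replicate 2 (horizontal axis, log scale) of the 52 regions with a peak of both libraries, by position relative to the gene; the solid line marks equal signal and the dotted lines a ratio of 2. Points follow the line over the whole range, with the Dag1 promoter at the top (12.2 and 7.77), and 4 lie beyond 2-fold after centring. The 2 upstream regions of Sgcd are drawn as outside the gene but lie within its annotated span.

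Footprints that overlapped between the libraries lay in 31 of the 52 shared regions (59.6%), beside 72.4% of all shared regions, and there were 83 of them. With the flanks counted, Sgca held 24, Utrn 20 and Dag1 19, while Sgcb held 7, Dmd 5, Sspn 4, and Sgcd and Dtna 2 each. These counts include footprints of neighbours, so their order is not that of the genes' own regions. Around Sgca, 4 and 6 lay in regions at Ppp1r9b starts, 2 at the Gm24877 start and 1 inside Col1a1. Around Dag1, 3 lay at a Bsn start, and around Sgcb 2 lay at a Lrrc66 start and 1 at a Spata18 start. The member regions also had lower signals, with medians of 0.982 and 0.957 beside 1.26 and 1.21 over all shared regions.

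Letter patterns were searched on both strands in the 150 bases around the peak midpoint of each shared region. CAGCTG, the E-box form bound by myogenic factors, was in 7 of 52 (13.5%), beside 16.9% of all shared regions, and CANNTG, which includes it, in 24 (46.2%), beside 53.9%. AP-1 (TGANTCA) was in 7 (13.5%), beside 5.26%, and all 7 were among the 31 regions away from starts (22.6%, beside 7.42% of all such regions). Of these 7 regions 4 belong to Utrn and 1 each to Dag1, Sgca and Sspn. GGGCGG was in 12 (23.1%), beside 26.8%, and in 10 of the 21 regions at starts, beside 46.4% of all such regions. The RUNX pattern TGTGGT was in 6 (11.5%), beside 8.29%. CATTCC, the MCAT element bound by TEAD factors, was in 5 (9.62%), beside 7.94%, and the CTCF core in 3 (5.77%), beside 9.14%.

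The MEF2 pattern was in 2 regions (3.85%), beside 0.967%: the Dtna region in intron 20 and a region in intron 1 of Sgcd with 0.757 and 0.504. CCGGAA (ETS), the NRF1 pattern and AGGTCA (nuclear receptor core site) were in 1 region each (1.92%), beside 8.63%, 0.625% and 8.30%. The CArG, NFI and glucocorticoid receptor patterns and TCAGGTT (MEF3) were in 0 regions, beside 0.582%, 0.0663%, 0.383% and 1.68%. The counts are small, and a match describes letters and not binding.

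The other genes of the complex were read from a list of 38 companions, of which 33 had a promoter peak of both libraries, beside 63.0% of all protein-coding genes, and 1, the keratin gene Krt19, had none in either. All 17 genes that glycosylate dystroglycan, which must carry a sugar chain to bind laminin, had peaks of both. Among those with the highest mean percentile were Dolk, which makes a sugar carrier lipid, with 6.61 and 6.02, and Gmppb, which makes a mannose donor, with 6.71 and 4.91. Both lay above the level of every member but Dag1.

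Of the sarcoglycan genes on this list, Sgce had 1.94 and 1.56, near the levels of Sgca and Sgcd, and Sgcz had 0.302 and 0.444. Of the syntrophins, adapters that bind dystrophin, 4 of 5 had them, Sntg1 having a peak of 0.284 in replicate 1 only. Dtnb, the other dystrobrevin, had 1.23 and 1.79. Of the 12 partners, 8 had peaks of both, a share near the 63.0% of all protein-coding genes, among them the synthase gene Nos1 with 2.21 and 1.72 and the laminin gene Lama2 with 1.54 and 1.71. The proteoglycan gene Bgn (0.880) and the integrin gene Itga7 (0.846) had peaks in replicate 2 only, and Krt8 (0.509) in replicate 1 only.

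Other protein-coding genes were ranked by likeness to each member over 4 values, the promoter signal and the number of regions in each library, as the distance between their log2(1 + value). The nearest were Plce1 for Dmd (0.0809), Maml3 for Utrn (0.184), Phlpp1 for Dag1 (0.263), Gpc6 for Sgca (0.203), Prmt6 for Sgcb (0.101), Hif3a for Sgcd (0.0513), Mrm2 for Sspn (0.0395) and A630001G21Rik for Dtna (0.145). The distance was largest for Dag1 and smallest for Sspn.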

How the data were processed

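DNase-seq libraries of mouse gastrocnemius were used as the authors deposited them, on build mm10 per the labels, from 2 samples of 1 group. Peak signal is the authors' deposited value, and lists were made library by library per the deposited notes. Aligner, callers, thresholds and the treatment of CAST alleles: not given in the sources used here. A deposited q-value per position is listed only below 0.05, and the other deposited footprint column holds the constant 0.01. The longer peak list of each library was used, the shorter being the stricter. Starts came from GENCODE M21 and sequences from RefSeq GRCm38.p6, the same assembly, read with pysam 0.24.0; counting was done with pandas 2.3.3. Overlap means at least 1 bp. Depth was 169 M and 117 M tags on the reading of the values, and Poisson intervals are exact at 95% and cover counting error only. Companion genes, motifs and the genes named were set by rule: every start of Dmd and Utrn, the strongest start of the others, the 10 strongest shared regions and the strongest of each gene, the 3 companions of highest mean percentile and those without a peak, and the nearest gene to each member. The other regions, windows and companions named were chosen after their values were seen. Some genes that this rule names are not reported here. The members and lists were chosen with earlier results of these data known. No test was run, as there is 1 group. Peak joining and motif search were checked on simulated data.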

Additional observations from a re-analysis of the deposited data

How the results depend on the processing

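The windows of 500 and 2500 bp, the stricter peak list and the use of equally many peaks left all 8 members with a promoter peak of both libraries. With the 5′ end of each gene alone, 5 members had one, without Dmd, Sgca and Sspn, as did 5 starts, and the median promoter signal was 3.63 (2.35 over all starts). The stricter list left 29 shared regions (52) and 2 beyond 2-fold (4). Within the gene bodies alone 2 were beyond 2-fold, 18 regions had a shared footprint (31) and 4 had CAGCTG (7). With 50 kb on either side 48 had a shared footprint. An overlap of at least 50% of each peak left 2 regions beyond 2-fold. Footprints identical at both ends lay in 2 regions. Whole regions can be longer than the 150 bases of the main search, and over them CAGCTG was in 19 (7). The share of all shared regions searched in this way was not counted. With either library left out, the regions numbered 71 to 128, those with a footprint of the remaining library 52 to 99, members with a promoter peak 8 in each case, starts 31 to 32, companions 35 in each case and the median promoter signal 2.33 to 2.36. Of 29 promoter signals of single members under the alternatives that keep both libraries, 28 were the same value as in the main setting. Their staying within 1 SD is therefore no further support. The other, of Sgcd with the 5′ end alone (0.528), moved by more than 1 SD. No paired analysis was possible because there is 1 group. With 2 libraries an SD is coarse, depth limits what weak regions show, and the level a listed peak needed differed between loci and libraries.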
